A study of Mus musculus with 6 samples.

Results

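The genes described here encode proteins that build the ribosome in the nucleolus of mouse bone marrow derived macrophages. They were chosen by name and not by a cut on measured values, though with earlier results of these data known. A gene was taken when its symbol in the platform annotation began with Nop, Utp, Rrp, Nol, Polr1 or Gnl followed by a digit or a letter from a to e, or when it was one of 14 listed genes such as Ncl, Npm1, Fbl, Dkc1, Bop1 or Pes1. The rule found 56 measured genes among 19938. Npm3, Gnl1 and Rrp7a were not analysed here because no probe set carried their name, and Utp14b lay only on a probe set shared with Acsl3. Symbols do not settle function, and 3 of the 56 genes (Nol3, Nol4 and Nol4l) have names of this kind without an established part in ribosome assembly.

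Marrow of C57BL/6 mice had been cultured for 7 days with CSF1 (M-CSF) to give M(CSF1) cells, or with CSF2 (GM-CSF) to give M(CSF2) cells. Each group had 3 arrays (Affymetrix Mouse Gene 1.0 ST, 1 colour, total RNA), labelled as biological replicates. The labels do not say that each array had its own mouse, so p-values measure only the spread between these samples, which may be technical. There was no untreated group, no age of the mice in the labels, and the cells were sorted before lysis by a marker that the sources used here do not name.

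Ribosome assembly begins when RNA polymerase I transcribes a long precursor RNA in the nucleolus. Small nucleolar ribonucleoproteins (snoRNPs), in which a small nucleolar RNA (snoRNA) guides an enzyme, modify that precursor, and the small subunit processome and a set of large subunit factors cut, fold and release the maturing subunits. The transcription factor MYC is known to drive many of these genes in growing cells, and macrophage precursors lower their growth programme as they stop dividing. Many snoRNAs are cut from introns of genes that themselves serve ribosome synthesis.

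In M(CSF2) cells 34 of the 56 genes were lower than in M(CSF1) cells and 0 were higher (limma, adjusted p under 0.05 over all 19938 genes). Of all genes tested, 15.6% were called lower and 11.9% higher. Among the 8444 genes whose mean signal fell in the range of the 56, 27.3% were called lower and 19.0% higher. The median difference of the 56 genes was -0.45 on the log2 scale, and that of all genes 0.04. Of the 22 others 8 had differences above 0, up to 0.29 for Rrp8, and 3 of those (Rrp8, Polr1c and Rrp36) had an unadjusted p under 0.05. A call of at least 1 on the log2 scale was reached by 8 genes, all lower, where 4.42% of all genes reached it in that direction and 3.57% in the other: Nop58, Ncl, Utp11, Wdr43, Dkc1, Gnl3, Npm1 and Utp20. The RNA came from many sorted cells together. A lower value in it can come from fewer cells of a kind, by culture or by sorting, or from less RNA per cell. These cannot be told apart here.

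**Figure D1:**
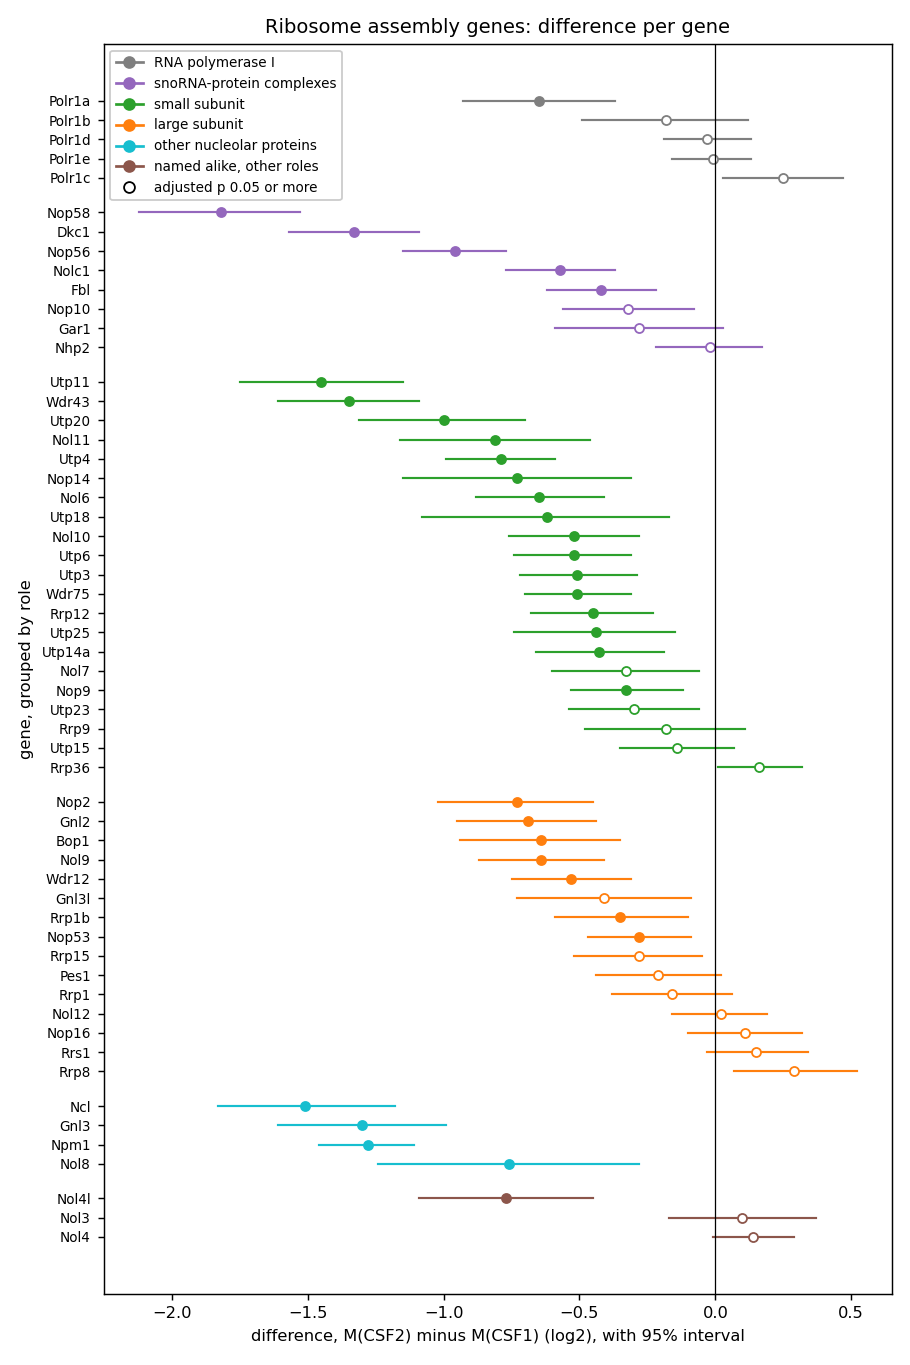
Log2 difference between M(CSF2) and M(CSF1), as M(CSF2) minus M(CSF1), for each of the 56 genes (x axis) with its 95% interval from the limma fit, grouped by role (y axis). Filled points passed an adjusted p of 0.05, and all 34 of them lie left of 0.

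On single arrays the groups stood apart for most of these genes. All 3 M(CSF2) values lay below all 3 M(CSF1) values for 37 of the 56 genes (19.8% of all genes did so) and above them for 4 (19.1% of all genes), and the groups of 38.9% of all genes did not overlap in either direction. The median signal of the 56 genes was 6.41, 6.31 and 6.16 in M(CSF1) replicates 1, 2 and 3, and 5.77, 5.79 and 5.78 in M(CSF2) replicates 1, 2 and 3. The M(CSF1) medians thus lay further apart than the M(CSF2) medians, while the median SD of single genes was 0.13 in M(CSF1) and 0.14 in M(CSF2). M(CSF1) replicate 3 was the lowest of its group for 43 of the 56, and M(CSF1) replicate 1 the highest for 40. Without M(CSF1) replicate 3 there were 38 lower calls, and without M(CSF1) replicate 1 there were 26. None of the 6 leave-one-out fits turned the direction of a called gene, and 26 of the 34 calls were made in all of them.

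Promoter sequence was available for 42 of the 56 genes from RefSeq (GRCm38.p6), as 250 bases before and 50 after an annotated start. The E-box CACGTG is a palindrome bound by MYC and MAX and by other factors of their class. It was searched because MYC is a known regulator of this gene class, and it was chosen with the values known. It occurred in 8 of the 42 genes (19.0%), in 9.52% of the 15563 tested genes with a promoter and in 8.09% of all 27025 genes of the promoter table. The share was 18.7% in 107 other assembly genes and 6.25% in 16 cell cycle genes, and 5 of 50 cytosolic ribosomal protein genes held the E-box. The 8 sites are shown in windows of 30 bases, 5′ to 3′ on the gene's strand, with the E-box in capitals.
Nol11: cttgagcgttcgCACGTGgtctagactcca
Nop2: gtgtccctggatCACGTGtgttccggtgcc
Pes1: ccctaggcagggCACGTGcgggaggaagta
Utp18: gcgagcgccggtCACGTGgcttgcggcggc
Utp20: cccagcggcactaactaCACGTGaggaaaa
Utp25: tccgccgtaaagccagcgtgccCACGTGcg
Utp4: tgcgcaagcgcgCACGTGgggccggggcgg
Wdr43: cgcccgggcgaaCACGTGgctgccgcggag
The windows lie at Nol11 at chr11:107189407-107189436 on the - strand, Nop2 at chr6:125131811-125131840 on the + strand, Pes1 at chr11:3963965-3963994 on the + strand, Utp18 at chr11:93885769-93885798 on the - strand, Utp20 at chr10:88826765-88826794 on the - strand, Utp25 at chr1:193130221-193130250 on the - strand, Utp4 at chr8:106893643-106893672 on the + strand and Wdr43 at chr17:71616220-71616249 on the + strand. The site began 60 bases before the start in Nop2, 43 before in Nol11 and 20 before in Utp18. In Pes1, Utp4, Wdr43, Utp20 and Utp25 it began after the start, at base 3, 16, 18, 38 and 43. Utp25 has 3 annotated starts, and the first listed was used.

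Of the 8 genes with this E-box, 7 were lower in M(CSF2) and Pes1 was not called, with a median difference of -0.76. Of the 34 genes without it, 18 were lower, with a median of -0.34. Over all genes with a promoter, 22.0% of those with the E-box and 15.9% of those without it were called lower. Called higher were 15.2% and 11.6%, so calls in both directions were more frequent with the E-box. The median differences of these 2 sets were 0.02 and 0.04, and their median signals 5.31 and 4.22. The ETS-type motif CCGGAAG, read on either strand, occurred in 33.3% of the 42 genes and 13.6% of tested genes. It was also frequent in the other assembly genes (43.0%) and the cytosolic ribosomal protein genes (36.0%). The GC box GGGCGG, read on either strand, was found in 73.8% of the 42 genes and 53.0% of tested genes, and in 64.5% of the other assembly genes, 58.0% of the cytosolic ribosomal protein genes and 81.2% of the cell cycle genes. For CCAAT on either strand these shares were 31.0% and 41.7%, and for the TATA box TATAAA on either strand 11.9% and 13.6%. No test was made of these shares. The largest and second largest falls, in Nop58 and Ncl, had no CACGTG in this window, which says nothing about sites elsewhere. The 250 bases before the start are shown for these and for Nop2, with the E-box, the ETS-type motif and the GC box in capitals on either strand, so that promoters with and without the E-box can be compared.
Nop58: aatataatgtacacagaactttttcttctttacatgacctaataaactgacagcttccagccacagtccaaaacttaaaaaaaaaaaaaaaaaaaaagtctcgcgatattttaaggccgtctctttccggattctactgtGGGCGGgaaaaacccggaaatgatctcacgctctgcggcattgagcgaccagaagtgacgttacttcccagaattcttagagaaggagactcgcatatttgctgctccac
Ncl: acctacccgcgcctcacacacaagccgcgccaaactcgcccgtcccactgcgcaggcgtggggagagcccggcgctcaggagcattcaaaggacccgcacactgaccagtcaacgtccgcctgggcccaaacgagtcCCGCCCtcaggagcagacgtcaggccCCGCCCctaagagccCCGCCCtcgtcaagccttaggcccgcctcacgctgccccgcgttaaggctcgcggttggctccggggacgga
Nop2: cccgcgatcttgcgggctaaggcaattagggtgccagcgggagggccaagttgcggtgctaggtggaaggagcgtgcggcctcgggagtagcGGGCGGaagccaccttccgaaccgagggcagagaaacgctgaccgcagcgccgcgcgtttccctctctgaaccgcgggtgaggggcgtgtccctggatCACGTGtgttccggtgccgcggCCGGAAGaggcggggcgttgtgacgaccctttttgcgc
These stretches lie at chr1:59684756-59685005 on the + strand, chr1:86359456-86359705 on the - strand and chr6:125131633-125131882 on the + strand. Ncl holds 3 GC boxes, all in reverse orientation, and Nop58 holds 1. Nop2 holds 1 GC box, 1 E-box and 1 ETS-type motif. A match of letters is a description and not a measured binding site.

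RNA polymerase I acts first in the pathway. Of its 5 measured subunit genes 1 was lower and 4 were not called, with a median difference of -0.03, and of -0.18 with the probe sets of each gene averaged. Polr1a encodes the largest, catalytic subunit. Its signal was 6.43, 6.33 and 6.11 in M(CSF1) replicates 1 to 3 and 5.75, 5.44 and 5.74 in M(CSF2) replicates 1 to 3, with no overlap, and it fell by 0.65 on the log2 scale (SE 0.12, limma adjusted p = 0.00458). The other catalytic subunit gene, Polr1b, gave -0.18 (95% interval -0.49 to 0.12, adjusted p = 0.371). Polr1e, a subunit outside the core, gave -0.01 (interval -0.16 to 0.13).

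Polr1c and Polr1d encode subunits that RNA polymerase III also contains. Polr1c read 7.03, 7.03 and 6.92 in M(CSF1) and 7.06, 7.37 and 7.29 in M(CSF2), every M(CSF2) array above every M(CSF1) array, at 0.25 (interval 0.03 to 0.47, adjusted p = 0.101). It was called higher without M(CSF2) replicate 1 (0.34, adjusted p = 0.0279) and after quantile normalization (0.33, adjusted p = 0.0215). Polr1d has a pair of probe sets with nearly the same mean, 7.059 and 7.046. The one that stands for the gene gave -0.03 (adjusted p = 0.797). The other, paired with 1 RefSeq transcript of the pair, had M(CSF2) below M(CSF1) on all arrays and gave -0.59 (SE 0.19, adjusted p = 0.0523 over all probe sets), so the value of Polr1d rests on the choice between them.

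Of 16 measured genes listed beside the subunits (other Pol I subunits, subunits shared by all polymerases and Pol I factors), 2 were lower and 2 higher, with a median of 0.01 (-0.02 after median centring). Without M(CSF2) replicate 1 there were 4 higher calls. Tcof1, which encodes treacle, a nucleolar scaffold for Pol I, fell by 1.01 (SE 0.12, adjusted p = 0.00058) and Rrn3, the factor that readies the polymerase for initiation, by 0.57 (SE 0.10, adjusted p = 0.00339). Taf1d and Taf1c, parts of the Pol I promoter selectivity factor, rose by 0.78 and 0.40 (adjusted p = 0.00022 and 0.00543), but Taf1d gave 0.04 with the mean of its probe sets (adjusted p = 0.77). Of 20 RNA polymerase III genes 6 were lower and 1 higher (median -0.18, and -0.08 after quantile normalization). Gtf3c6 (-0.90), Polr3b (-0.62) and Polr3f (-0.55) fell, and Maf1, a repressor of RNA polymerase III, rose by 0.54. Polr3f was called in 8 of 14 alternative fits, and not under the replicate block or without M(CSF1) replicate 1 or 2 or any single M(CSF2) array.

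**Figure D2:**
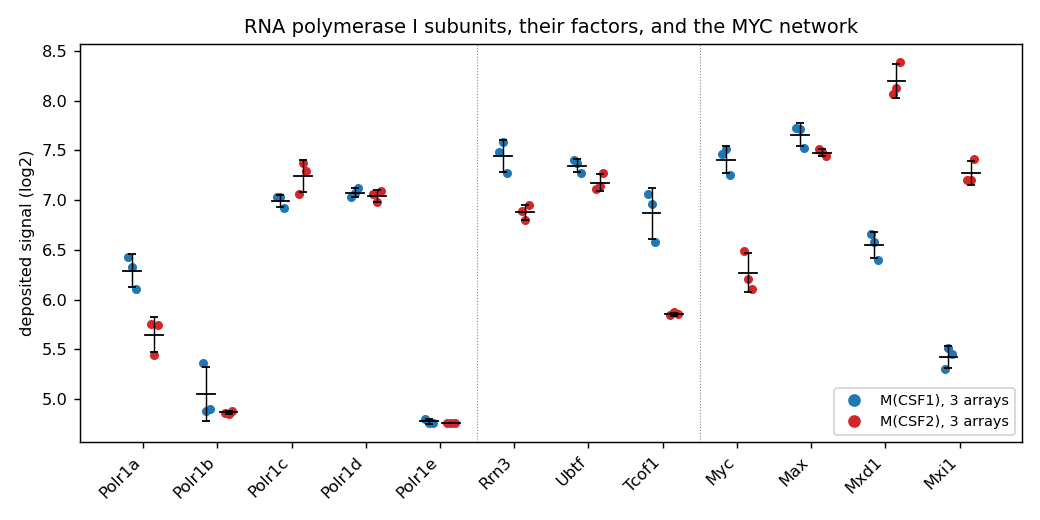
Deposited log2 signal (y axis) on each of 3 M(CSF1) and 3 M(CSF2) arrays for the 5 RNA polymerase I subunit genes, 3 genes of Pol I factors and 4 genes of the MYC network (x axis), with the mean and SD of each group. Polr1a, Tcof1, Rrn3 and Myc lie lower in M(CSF2), while Mxd1 and Mxi1 lie higher. Mxd4, which was lower in M(CSF2), and Mnt are not drawn.

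The snoRNP proteins form a pair of particles. Box C/D particles carry the methyltransferase fibrillarin (Fbl) with Nop56 and Nop58, and box H/ACA particles carry the pseudouridine synthase dyskerin (Dkc1) with Gar1, Nhp2 and Nop10. Of 8 measured genes 5 were lower and 3 were not called, with a median of -0.49. Within each particle the genes did not move by equal amounts.

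Nop58 had the largest difference of all 56 genes. It read 6.49, 6.37 and 6.16 in M(CSF1) and 4.37, 4.42 and 4.75 in M(CSF2), a gap wider than the whole range within either group, and fell by 1.82 (SE 0.13, adjusted p = 3.1e-05), which is 3.54-fold (95% interval 2.88 to 4.35). Its partner Nop56 read 8.45, 8.33 and 8.28 against 7.48, 7.31 and 7.40, also without overlap, and fell by 0.96 (SE 0.08, adjusted p = 7.9e-05). Fbl fell by 0.42 (SE 0.09, adjusted p = 0.00809), and a second probe set of Fbl by 0.62 (adjusted p = 0.00329 over all probe sets). The 95% intervals of the fall, -2.12 to -1.53 for Nop58 and -0.62 to -0.22 for Fbl, do not meet.

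Dkc1 read 5.34, 5.43 and 5.25 in M(CSF1) and 3.84, 4.00 and 4.19 in M(CSF2), again without overlap, and fell by 1.33 (SE 0.10, adjusted p = 5.1e-05). Its partners gave smaller values that did not pass: -0.32 for Nop10 (interval -0.56 to -0.08, adjusted p = 0.0582), -0.28 for Gar1 (-0.59 to 0.03) and -0.02 for Nhp2 (-0.22 to 0.17). The M(CSF1) arrays of Nhp2, at 7.26, 7.26 and 7.28, lay within the range of the M(CSF2) arrays, 7.14 to 7.39. Nop10 was called lower without M(CSF1) replicate 3 (adjusted p = 0.0413). Nolc1, a nucleolar phosphoprotein that binds both particles, fell by 0.57 (SE 0.09, adjusted p = 0.00165).

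Of 24 further genes for snoRNP assembly and for the exosome, which trims precursor RNA, 11 were lower and 0 higher (median -0.27), and 6 were lower without M(CSF1) replicate 2. Dis3, an exosome nuclease, fell by 1.31 (adjusted p = 9.2e-05), the exosome ring subunit Exosc8 by 0.84 (adjusted p = 0.00079) and the exosome helicase Mtrex by 0.80 (adjusted p = 0.00426).

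Of 21 small subunit genes, most of them parts of the processome on the nascent precursor, 16 fell and 0 rose, with a median of -0.51. Utp11 read 7.65, 7.73 and 7.36 in M(CSF1) and 6.05, 6.00 and 6.34 in M(CSF2) and fell by 1.45 (SE 0.13, adjusted p = 0.00011), 2.72-fold (interval 2.21 to 3.36). Wdr43, a WD-repeat protein of the complex that couples Pol I transcription to processing, read 7.61, 7.38 and 7.20 against 5.98, 6.04 and 6.12 and fell by 1.35 (SE 0.11, adjusted p = 7.1e-05). The groups were separate in both genes by about 1 log2 unit or more. Utp20, a very large scaffold protein, fell from 6.40 ± 0.23 to 5.39 ± 0.15 (SD, n = 3 arrays each, adjusted p = 0.00078).

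Other parts of the same complex as Wdr43 fell by less. Nol11 fell by 0.81 (SE 0.15, adjusted p = 0.00465), Utp4 by 0.79 (SE 0.09, adjusted p = 0.00032) and Wdr75 by 0.51 (SE 0.08, adjusted p = 0.00257), while Utp15 gave -0.14 (interval -0.35 to 0.07, adjusted p = 0.312). Nol11 is also named, with the ribosomal protein gene Rps12, on 4 shared probe sets, which gave -0.48 to -0.47 and were not tested. The remaining called falls ran from -0.73 for Nop14 to -0.33 for Nop9, with Nol6, Utp18, Nol10, Utp6, Utp3, Rrp12, Utp25 and Utp14a between them. Rrp9, which recognises the snoRNA U3, gave -0.18 (interval -0.48 to 0.11). Nol7 and Utp23 gave -0.33 and -0.30 without passing (adjusted p = 0.077 and 0.0727). Rrp36 alone of the 21 was above 0, at 6.40, 6.46 and 6.42 against 6.59, 6.64 and 6.55, a difference of 0.16 (adjusted p = 0.11, and 0.28 with adjusted p = 0.035 after quantile normalization).

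Several of these calls depended on single arrays. Utp18 (-0.62, adjusted p = 0.0497) and Nop9 (-0.33, adjusted p = 0.0262) kept their call in 1 of 6 leave-one-out fits, when M(CSF1) replicate 3 was dropped, and had adjusted p from 0.0895 to 0.175 and from 0.0588 to 0.105 in the other 5. Utp25 (-0.44, adjusted p = 0.0363) was called only without M(CSF2) replicate 2, with 0.0566 to 0.141 in the other 5 fits. Nop14 (-0.73, adjusted p = 0.0185) was called without M(CSF1) replicate 3 or M(CSF2) replicate 3 and had 0.0564 to 0.0843 in the other 4. Utp14a (-0.43, adjusted p = 0.0155) lost its call without M(CSF1) replicate 1 (adjusted p = 0.0669). Nol7 and Utp23 were called in 1 fit each: Nol7 when M(CSF1) replicate 3 was dropped (adjusted p = 0.0163), Utp23 when M(CSF2) replicate 2 was (adjusted p = 0.0155).

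Of 41 further genes listed for small subunit assembly 22 were lower and 1 higher, with a median of -0.42. The list counts Sart3 (-0.27, called lower), for which a part in this assembly is not established. Without M(CSF1) replicate 1 there were 14 lower calls. The helicase gene Ddx10 fell by 2.04 (SE 0.28, adjusted p = 0.00099). Its M(CSF2) arrays read 4.33, 3.33 and 4.25, and replicate 2 lay below 3.36, the 95th percentile of 1015 olfactory receptor genes. The processome protein gene Wdr36 fell by 1.60 (SE 0.12, adjusted p = 3.7e-05) and the export factor gene Ltv1 by 1.04 (adjusted p = 0.0007). Rcl1, which encodes a processome protein, rose by 0.65 (adjusted p = 0.00272).

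Of 15 large subunit genes 7 fell and 0 rose, with a median of -0.28 and none at 1 or more. Nop2, an RNA methyltransferase, read 7.72, 7.52 and 7.33 in M(CSF1) and 6.82, 6.94 and 6.62 in M(CSF2), without overlap, and fell by 0.73 (SE 0.12, adjusted p = 0.00293). The GTPase gene Gnl2 fell by 0.69 (SE 0.11, adjusted p = 0.00211) and Nol9, a kinase that acts on cut precursor RNA, by 0.64 (SE 0.10, adjusted p = 0.00196). These falls were smaller than those of the leading snoRNP and processome genes.

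Bop1, Pes1 and Wdr12 encode the 3 proteins of the PeBoW complex, which is needed to process the large subunit RNA. Bop1 read 8.10, 7.96 and 7.68 against 7.11, 7.42 and 7.27 and fell by 0.64 (SE 0.13, adjusted p = 0.00653). Wdr12 fell by 0.53 (SE 0.09, adjusted p = 0.0037) with the probe set that stands for it, while a dimmer one gave -0.48 with overlapping groups (adjusted p = 0.0797 over all probe sets). Pes1 read 8.14, 8.04 and 7.83 against 7.69, 7.82 and 7.86, so its groups overlapped, and gave -0.21 (interval -0.44 to 0.02, adjusted p = 0.167). Without M(CSF1) replicate 3 it was called lower (adjusted p = 0.0428).

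Rrp1b and Nop53 gave small called falls, -0.35 (adjusted p = 0.044) and -0.28 (adjusted p = 0.0391). Rrp1b was called without M(CSF1) replicate 3 or M(CSF2) replicate 3 and had adjusted p from 0.0955 to 0.161 in the other 4 fits. Among these fits Nop53 was called without M(CSF1) replicate 3 alone and had 0.0691 to 0.134 in the other 5, and it also lost its call after quantile normalization (-0.21, adjusted p = 0.0912). Gnl3l (-0.41, adjusted p = 0.0614) and Rrp15 (-0.28, adjusted p = 0.0808) were not called, except without M(CSF1) replicate 3 (adjusted p = 0.0268 and 0.0279). The remaining large subunit genes were Rrp1 (-0.16), Nol12 (0.02), Nop16 (0.11), Rrs1 (0.15) and Rrp8 (0.29), none of which passed.

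Rrp8, a methyltransferase also known as nucleomethylin that acts on ribosomal RNA and at ribosomal DNA, had the highest difference of all 56 genes. It read 6.43, 6.36 and 6.25 in M(CSF1) and 6.81, 6.54 and 6.56 in M(CSF2), the groups just apart (interval 0.07 to 0.52, adjusted p = 0.0622). After quantile normalization it was called higher (0.41, adjusted p = 0.00918), as it was when genes dimmer than the median gene (adjusted p = 0.0402) or only genes down at the level of olfactory receptors (adjusted p = 0.0473) were not tested.

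Of 48 further large subunit genes 27 were lower and 2 higher, with a median of -0.42. The export adaptor gene Nmd3 fell by 1.55 (SE 0.10, adjusted p = 2.1e-05), the helicase gene Ddx21 by 1.36 (SE 0.11, adjusted p = 7.6e-05) and the RNA-binding nucleolar protein gene Nifk by 1.03 (adjusted p = 0.00014). This list also holds Ltv1, named above, and Noc4l, both of which are known as small subunit factors, and counts them. Eif6, which keeps the new large subunit from joining too early, rose by 0.45 (adjusted p = 0.0102). It gave 0.36 to 0.53 in the alternative fits but was not called without M(CSF1) replicate 2 (adjusted p = 0.054). Noc4l, the other rise, gave 0.30 (adjusted p = 0.0325) and was called in 7 of 14 alternative fits, not under median centring, the replicate block or in the fits without M(CSF1) replicate 2 or 3 or any single M(CSF2) array.

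The 4 genes of other nucleolar proteins all fell, with a median of -1.29. Nucleolin (Ncl), which binds precursor RNA, read 8.16, 7.98 and 7.79 in M(CSF1) and 6.59, 6.21 and 6.61 in M(CSF2) and fell by 1.51 (SE 0.14, adjusted p = 0.00012), 2.84-fold (interval 2.27 to 3.55). Nucleophosmin (Npm1), a chaperone of ribosomal proteins and histones, read 8.04, 8.20 and 8.18 against 6.90, 6.83 and 6.84 and fell by 1.28 (SE 0.07, adjusted p = 1.1e-05). Both genes had groups more than 1 log2 unit apart on every array.

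Npm1 is also named with Gm15484 on 3 shared probe sets, which gave -1.26, -1.24 and -1.18 and were not tested. Nucleostemin (Gnl3), a GTPase of proliferating and stem cells, read 6.35, 6.01 and 6.16 against 4.76, 4.74 and 5.12 and fell by 1.30 (SE 0.13, adjusted p = 0.00021). Nol8 fell by 0.76 (SE 0.21, adjusted p = 0.028) with the widest spread of the 56 genes in M(CSF1) (SD 0.45). It kept its call in 1 of 6 leave-one-out fits, when M(CSF1) replicate 3 was dropped, and had 0.0604 to 0.125 in the other 5.

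Among the 3 genes without an established part in assembly, Nol4l fell by 0.77 (SE 0.14, adjusted p = 0.00374). Nol3, an inhibitor of apoptosis, gave 0.10 (adjusted p = 0.597). Nol4 gave 0.14 (adjusted p = 0.172) with groups that did not overlap, and its other 2 probe sets gave 0.13 and 0.02.

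**Figure D3:**
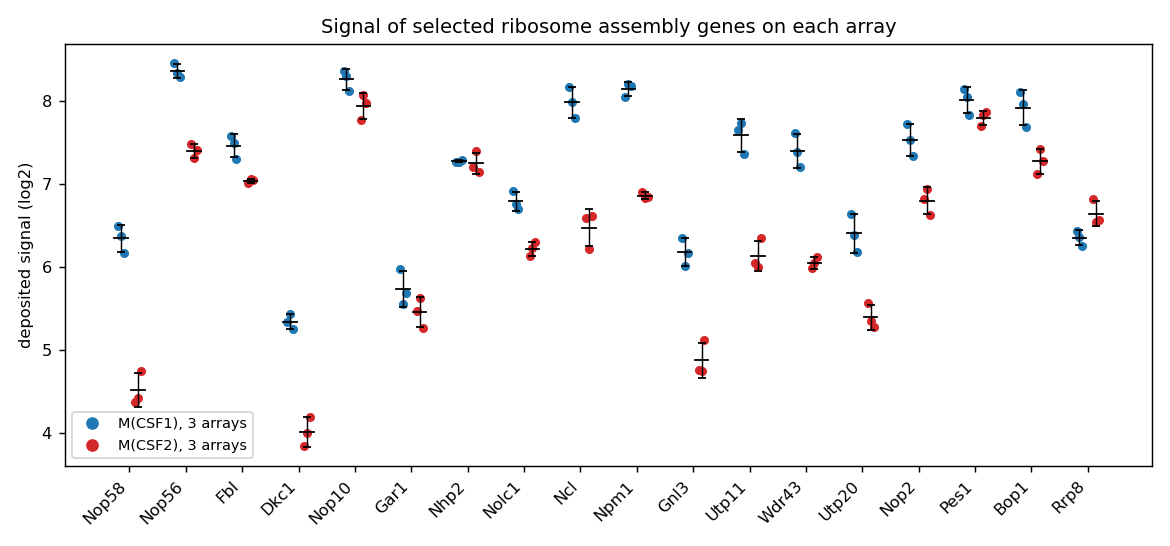
Deposited log2 signal (y axis) on each array for 18 of the 56 genes (x axis), with the mean and SD of 3 M(CSF1) and 3 M(CSF2) arrays. Nop58, Dkc1, Ncl, Npm1 and Utp11 show separate groups, while the groups of Nhp2, Gar1 and Pes1 overlap. Levels of different genes come from different probes and are not comparable.

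Genes that carry snoRNAs in their bodies were among the largest falls. By the RefSeq gene table, and without regard to strand, 7 of them enclose at least 1 annotated snoRNA gene: Nop58, Nop56, Ncl, Wdr43, Dkc1, Gnl3 and Nop53. Each of the 7 was lower in M(CSF2), 5 of them by at least 1 on the log2 scale, with a median of -1.33. Of the 49 others 27 were lower and 3 by at least 1, with a median of -0.42. Among 337 tested genes outside the 56 that enclose a snoRNA gene, 111 (32.9%) were lower and 29 (8.61%) higher, with a median of -0.06. This grouping was made with the values known, and Nop53 is the smallest fall of the 7.

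The snoRNA genes inside these hosts were measured in 4 of 19 cases, by a probe set of their own, and 3 of the 4 were higher in M(CSF2). Snord82, which lies in Ncl, read 9.43, 9.34 and 9.52 in M(CSF1) and 9.92, 10.10 and 9.84 in M(CSF2) and rose by 0.52 (SE 0.09, adjusted p = 0.00357) while Ncl fell by 1.51. Snord57, in Nop56, read 9.44, 9.39 and 9.73 against 10.22, 10.37 and 10.11 and rose by 0.71 (SE 0.11, adjusted p = 0.00224) while Nop56 fell by 0.96. For both, every M(CSF2) array lay above every M(CSF1) array, the reverse of the host.

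Snord53, in Wdr43, rose by 0.59 (SE 0.14, adjusted p = 0.0167). It gave 0.45 to 0.69 in the alternative fits but was not called without M(CSF1) replicate 1 or M(CSF1) replicate 3 (highest adjusted p = 0.062). Snora75, also in Ncl, had 3 of its 6 values at or below 3.36, the 95th percentile of 1015 olfactory receptor genes, and gave -0.03 (adjusted p = 0.867). Higher snoRNA values were not limited to these hosts. Of 54 snoRNA genes named on the array 38 (70.4%) were higher and 0 lower in M(CSF2), with a median of 0.53. Of all genes tested, 11.9% were called higher and 15.6% lower. Under the alternative fits, both other scalings included, 29 to 40 of the 54 were higher and 0 to 1 lower. Of 29 pairs of a snoRNA gene and an enclosing gene outside the 56, 19 had a lower host and 19 a higher snoRNA, with both in 13, and no link between host and snoRNA was tested.

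**Figure D4:**
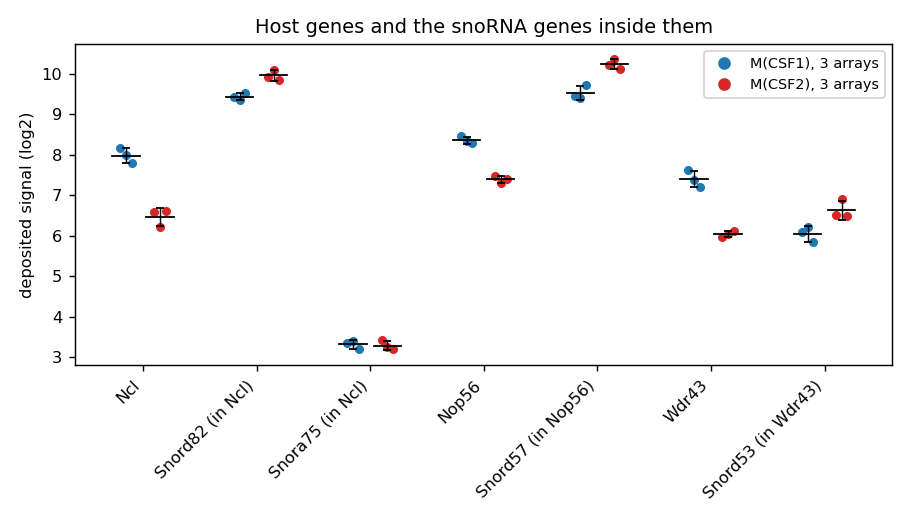
Deposited log2 signal (y axis) on each array for 3 host genes and the 4 snoRNA genes inside them that have a probe set (x axis), with the mean and SD of 3 arrays per group. Ncl, Nop56 and Wdr43 lie lower in M(CSF2), Snord82, Snord57 and Snord53 lie higher, and Snora75 does not differ beyond its spread.

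Regulators of this pathway were read beside it. Myc read 7.46, 7.51 and 7.25 in M(CSF1) and 6.49, 6.21 and 6.11 in M(CSF2), without overlap, and fell by 1.13 (SE 0.12, adjusted p = 0.00025), while its partner Max gave -0.19 (adjusted p = 0.14, and 0.037 without M(CSF1) replicate 3). Mxi1 and Mxd1, whose proteins compete with MYC for MAX, rose by 1.85 (adjusted p = 5.7e-06) and 1.65 (adjusted p = 2.4e-05). Not all genes of this kind rose: Mxd4 fell by 0.50 (adjusted p = 0.006) and Mnt gave 0.06 (adjusted p = 0.593). Of 19 measured regulators in all, 4 were lower and 3 higher (median -0.01, and 0.03 after quantile normalization). Besides Myc and Mxd4, the demethylase gene Kdm2a (-0.55) and the translation regulator gene Larp1 (-0.39) fell, and Mlxip rose by 0.27. Kdm2a was not called under the replicate block or without M(CSF1) replicate 1 or 2 or M(CSF2) replicate 1 or 2, and Mlxip was called in 5 of 14 alternative fits and in none with an array left out (highest adjusted p = 0.12). Their part in the differences of the 56 genes was not tested.

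Ribosomal protein and cell cycle genes give the setting. Of 62 cytosolic ribosomal protein genes 43 were lower and 1 higher (median -0.36), and of 77 mitochondrial ribosomal protein genes 14 were lower and 4 higher (median -0.12). Both lists were taken by symbol. The cytosolic list thus also holds Rps19bp1 and Rps23rg1, which are only named after ribosomal proteins, and it leaves out Rpsa. For the mitochondrial genes there were 9 lower and 9 higher calls after quantile normalization (median -0.06), 7 lower without M(CSF1) replicate 1 (median -0.06) or M(CSF2) replicate 1, 8 without M(CSF2) replicate 3 and 9 without M(CSF1) replicate 2. No test of the 56 genes against these lists was made. All 19 measured cell cycle genes of a list of 20 were lower in M(CSF2), with a median of -2.05. The sum of their log2 signals was 137.0 to 140.5 on the M(CSF1) arrays and 97.0 to 99.8 on the M(CSF2) arrays. Their part in the differences of the 56 genes was not tested.

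**Figure D5:**
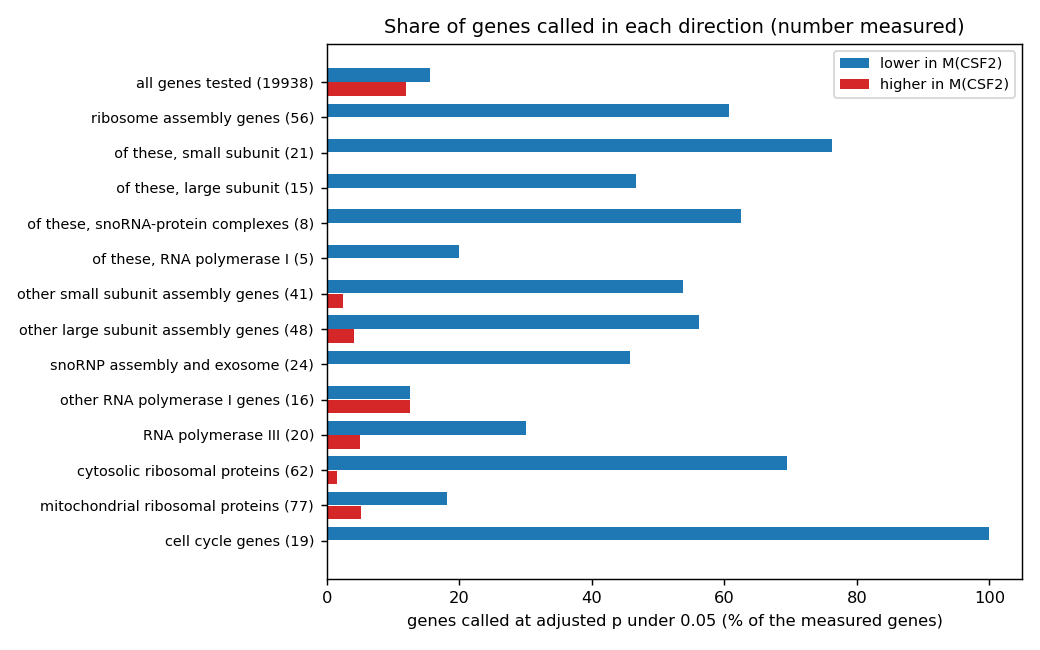
Share of measured genes (x axis, percent) called lower or higher in M(CSF2) at an adjusted p under 0.05, for the ribosome assembly genes, 4 of their roles, the related lists and all 19938 genes (y axis, number measured in brackets). The ribosome assembly genes have 60.7% lower and none higher, against 15.6% and 11.9% of all genes.

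The 8 macrophage markers were above the olfactory receptor level on all arrays, but 6 of them differed between the groups (summed log2 signal 80.8 to 81.6 in M(CSF1) and 80.5 to 81.2 in M(CSF2)). Fcgr1 (-1.23), Adgre1 (-1.18) and Lyz2 (-0.48) were lower in M(CSF2), and Cd14 (1.71), Cd68 (0.89) and Csf1r (0.60) were higher. T and NK cell markers had 0 of 6 called (4 of 6 at or below that level on all arrays, summed log2 signal 17.8 to 19.1 in M(CSF1) and 18.8 to 18.9 in M(CSF2)), and erythroid markers 0 of 2 (2 of 2 at or below it, 6.0 to 6.5 and 6.2 to 6.3). Some markers of other cells also moved with the groups: Cd79b, 1 of 4 B cell markers, was lower (summed 17.4 to 19.3 against 15.5 to 15.9). S100a9, another neutrophil marker, gave -0.34 (limma adjusted p = 0.0717), with every M(CSF2) array below every M(CSF1) array. S100a8 (2.37) and Ltf (0.31), 2 of 9 neutrophil markers, were higher (summed 31.8 to 33.1 against 34.4 to 36.7). Cxcr2, Ly6g, Ngp and Ltf were at or below the olfactory receptor level on all arrays. Kit and Mcpt8, 2 of 6 mast cell and basophil markers, were higher (16.9 to 17.6 against 19.2 to 19.5), with 5 of 6, all but Kit, at or below it on all arrays, and Dcn, 1 of 5 stromal markers, was higher (22.9 to 23.4 against 26.4 to 27.7). Their part in the results was not tested. Array medians were 3.91 to 4.00, and arrays correlated across probe sets at 0.995 to 0.997 within groups and 0.954 to 0.959 between them.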

How the data were processed

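Per the labels, total RNA was biotin-labelled and hybridised to 1-colour arrays. The deposited table holds 1 column of values per array for 28941 probe sets, taken as log2 because they run from 1.48 to 13.27. The submitters' processing notes name MAS5 alone. The background correction, normalization and probe summary used by the authors are not given in the sources read. The mean over all probe sets was 4.63 on every array, so an equal shift of all genes between the groups could not show. What else the values are relative to is unknown. The number of arrays limits the precision. No detection calls or scan batches came with the table.

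Gene names came from the platform annotation, and the 21789 probe sets with exactly 1 gene were used. The probe set with the highest mean stood for a gene. M(CSF2) minus M(CSF1) was fitted across genes (R 4.3.3, limma 3.58.1, lmFit and eBayes, 2-sided) over 19938 genes with Benjamini-Hochberg adjustment, without a filter. The procedure was tested on simulated data. The main fit did not pair arrays by replicate number. Deviations of same-numbered arrays from their group means correlated at 0.00, -0.04 and -0.25. This gives no sign of pairing but cannot exclude it, and the labels do not settle it.

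Members, roles and lists were chosen with earlier results of these data known. All members are accounted for. Named with full values are called differences of at least 1, the extremes of each role, and members whose probe sets or left-out arrays disagree. Up to 3 called genes per direction are named from each list. The snoRNA genes, their hosts and the promoter motifs were chosen later, with the values known. Alternatives were the scaling, filters on dim genes, the use of probe sets, the variance model, the replicate block, current symbols and leaving out each array.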

Additional observations from a re-analysis of the deposited data

How the results depend on the processing

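The number of genes called lower, 34 as deposited, was 35 after quantile normalization, 36 after median centring, 38 without genes below the median signal, 36 without genes at the olfactory receptor level, 34 with probe sets of a gene averaged, 32 with every probe set tested alone, 32 with an intensity trend, 34 with robust variance and 31 with the replicate number as a block. Those 31 were all among the 34, and of the 34 Nop53, Nop9 and Rrp1b lost their call under the block. Nop53 lost it after quantile normalization too. Leaving out each array gave 26 to 38. The rule found the same 56 genes by current RefSeq symbols. The number called higher, 0 as deposited, was 3 after quantile normalization and 1 under each filter on dim genes, and 0 to 1 when each array was left out. The median of the 56 differences stayed between -0.53 and -0.40. Scaling moved the median of all genes by -0.028 and -0.037. Signs turned for genes near 0 that were called in no fit named here: under quantile normalization Nhp2 gave 0.06 and Polr1d 0.06, under median centring Nol12 gave -0.02, and with arrays left out Nol12 ranged from -0.02 to 0.06, Nhp2 from -0.10 to 0.03 and Polr1d from -0.05 to 0.00. The causes of these changes were not tested, beyond the smaller number of arrays or of genes tested. Detection is not recorded in the table, so the olfactory receptor level is only a guide to dim genes. All 56 genes lay above it on every array.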
